A study of Homo sapiens with 12 samples.

Results

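The genes described here encode the ATP-binding cassette (ABC) transporters, a family that was measured in HCT116 cells after knockdown of the nuclear receptor LRH-1. Members were all genes whose symbol in the platform annotation begins with ABCA to ABCG and a digit, together with CFTR, and each gene was read on the probe with the highest mean intensity. This gave 26 genes, out of 7452 named genes, which are those with a deposited probe that carried their symbol alone in that annotation. Of the 26, 2 are pseudogenes (ABCA11P and ABCC6P2), and the other 24 come from a list of 48 family members. The remaining 24 listed genes, among them ABCA1, ABCG2 and ABCG5, were not analysed here.

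HCT116 is an established human colorectal cancer cell line. The cells were transfected for 24 h with 5 nM of one of 3 duplexes, namely siLRH-1 #1, siLRH-1 #2 or the non-targeting siLUC, whose target is luciferase. All groups, the siLUC controls included, received the same lipid reagent by reverse transfection. Each group had 4 Illumina HumanHT-12 v4 arrays, which the methods describe as independent biological replicates. A change seen with both LRH-1 duplexes is what the study takes as regulation by the receptor, and a single line with transient knockdown is the limit of the model.

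ABC transporters couple ATP hydrolysis to the movement of lipids, sterols, bile acids, peptides, haem precursors, drugs and drug conjugates across membranes. Members of ABCE and ABCF lack membrane-spanning domains and act on ribosomes instead. CFTR, which belongs to ABCC, is a chloride and bicarbonate channel. LRH-1 is a nuclear receptor of liver and gut that binds DNA as a monomer at sites with a CAAGG core, and in liver it is known to act on the shared control region of ABCG5 and ABCG8, the pair that secretes sterols into bile and the gut lumen.

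Promoter sequence is shown for 3 genes, because the question of the family is whether a receptor with a known DNA motif moves its transporters. ABCG8 is the sterol transporter with a known link to LRH-1, ABCA7 is a member that changed and whose window holds the core, and ABCB6 is the member that changed most. Each line gives the 250 bases before the RefSeq start site, read 5′ to 3′ on the strand of the gene, with the core in capitals as CAAGG or, on the opposite strand, CCTTG. The windows lie in GRCh38.p14 at chr2:43838721-43838970 on the plus strand (ABCG8), chr19:1039857-1040106 on the plus strand (ABCA7) and chr2:219218959-219219208 on the minus strand (ABCB6), each ending 1 base before the annotated start of transcription.
ABCG8: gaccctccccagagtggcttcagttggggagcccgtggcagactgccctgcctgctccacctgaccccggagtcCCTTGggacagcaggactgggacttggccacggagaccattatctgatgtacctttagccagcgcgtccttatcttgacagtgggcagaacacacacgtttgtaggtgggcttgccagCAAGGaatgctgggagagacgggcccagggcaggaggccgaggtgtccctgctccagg
ABCA7: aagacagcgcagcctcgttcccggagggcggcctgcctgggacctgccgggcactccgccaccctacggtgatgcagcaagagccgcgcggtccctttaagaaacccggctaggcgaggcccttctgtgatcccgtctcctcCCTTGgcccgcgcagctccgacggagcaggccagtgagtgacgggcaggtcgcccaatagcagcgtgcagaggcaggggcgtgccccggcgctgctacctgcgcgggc
ABCB6: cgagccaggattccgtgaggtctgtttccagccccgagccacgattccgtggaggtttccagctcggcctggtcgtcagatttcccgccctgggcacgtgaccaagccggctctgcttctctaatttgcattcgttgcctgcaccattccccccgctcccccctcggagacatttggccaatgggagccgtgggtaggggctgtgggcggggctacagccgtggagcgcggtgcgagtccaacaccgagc
The core stood 2 times before ABCG8, once on each strand, 1 time before ABCA7 and 0 times before ABCB6. ABCC4 and ABCD3, which were also called with siLRH-1 #1, had 0 matches in their windows too. ABCC3, called with siLRH-1 #1 as well, had no window. ABCA7 was thus the only one of these called genes found with the core. RefSeq windows of 250 bases before and 50 after a start were available for 21 of the 26 members, 29 windows in all. CAAGG was present on either strand in 18 of these 29 windows, while 47.8% of all 35116 windows held it. By gene, 15 of the 21 had it in at least 1 window, a count for which no share over all genes was computed. The longer CAAGGNCA, which contains the core, was in 0 of the 29 windows and in 5.28% of all windows. A match of letters describes the window and is not a binding site.

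The deposited values were log2 intensities, alike in distribution on the 12 arrays, with array medians of 6.49 to 6.50. Within groups, no array pair correlated below 0.996. All probes were fitted together with limma, and a gene is called here where its adjusted p over all 16381 probes was below 0.05. Markers were checked against the labelled line. Of 11 epithelial markers measured, 8 were above the median probe, with KRT19 at 12.61 in siLUC cells, while 0 of 3 fibroblast markers and 1 of 5 leukocyte markers (CD68, at 8.10) were above it. Endothelial markers were not analysed here. With siLRH-1 #1, CD68 had 7.84 against 8.10 in siLUC cells, and 4 of the 11 epithelial markers passed the test, 2 in each direction. These are 36.4%, where 17.2% of all probes and 23.5% of the brightest probes of named genes passed, shares not matched for brightness. The part of these markers in the results below was not tested. NR5A2, the gene of LRH-1, was not analysed here, and the depth of the knockdown is therefore not given.

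With siLRH-1 #1, 5 of the 26 transporter genes changed against siLUC, while with siLRH-1 #2 none did. ABCB6 and ABCD3 were higher with siLRH-1 #1, and ABCC3, ABCC4 and ABCA7 were lower. The 5 genes make up 19.2% of the family, where 17.2% of all probes were called in this comparison (8.05% higher and 9.12% lower), and 23.5% of the brightest probes of named genes. The share in the family was thus near that of the array as a whole. With siLRH-1 #2 the count was 0 of 26 by limma (5.71% of all probes, with 2.86% higher and 2.85% lower, and 8.39% of the brightest probes of named genes), and 6 members had an unadjusted p under 0.05, of which 4 were higher and 2 lower (17.6% of all probes). No member was called with both siRNAs in 1 direction, against 3.24% of all probes. At an unadjusted p under 0.05, 2 members, ABCB6 and ABCD3, moved the same way with both, against 9.20% of all probes. Both comparisons use the same siLUC arrays.

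**Figure D1:**
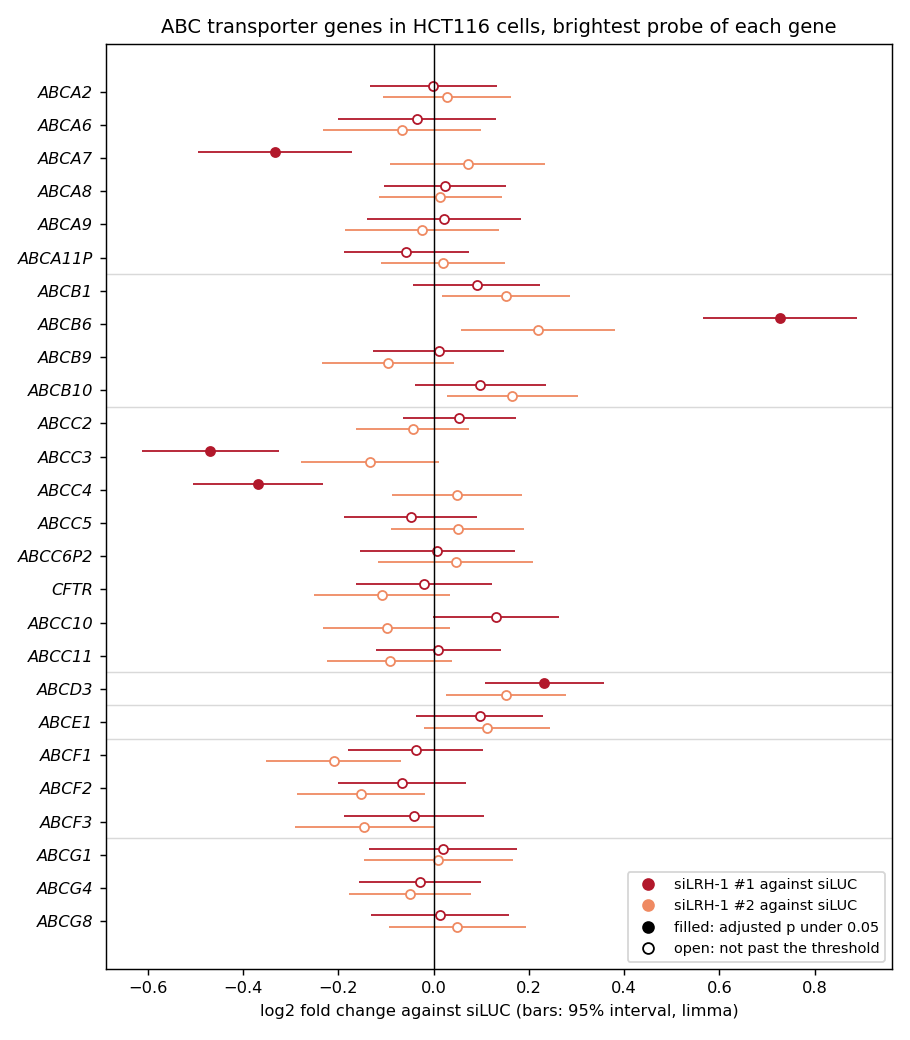
Log2 fold change of each ABC transporter gene (brightest probe) against siLUC for siLRH-1 #1 and for siLRH-1 #2, with 95% intervals from limma over 4 arrays a group; grey lines part the subfamilies. Filled points passed an adjusted p under 0.05, which 5 genes did with siLRH-1 #1 and 0 with siLRH-1 #2.

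ABCB6 carried the largest change in the family. It encodes a half-transporter of porphyrins, found in mitochondria and other membranes. Its log2 intensities were 8.72, 8.81, 8.79 and 8.54 with siLRH-1 #1 and 8.04, 8.35, 8.17 and 8.26 with siLRH-1 #2, against 7.87, 7.96, 7.94 and 8.18 with siLUC. Every siLRH-1 #1 array was above every array of the other groups, while the siLRH-1 #2 and siLUC arrays overlapped. The log2 fold change with siLRH-1 #1 was 0.73 (standard error 0.078, adjusted p = 2.75e-07, limma), a ratio of 1.66. With siLRH-1 #2 it was 0.22 and did not pass (adjusted p = 0.109, limma; 95% interval 0.06 to 0.38). The siRNAs differed from each other by 0.51 (adjusted p = 6.43e-05, limma). Without siLUC replicate 4, the highest of the controls, ABCB6 passed with siLRH-1 #2 too (0.28, adjusted p = 0.0364, limma), and was then the 1 member called with both siRNAs.

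ABCD3, a peroxisomal half-transporter that brings acyl-CoA esters and bile acid intermediates into the organelle, was the other gene that rose. The arrays gave 8.32, 8.28, 8.18 and 8.19 with siLRH-1 #1 and 8.14, 8.16, 8.27 and 8.08 with siLRH-1 #2, against 8.03, 8.00, 8.05 and 7.96 with siLUC. All 8 knockdown arrays were thus above all 4 control arrays. The rise was 0.23 with siLRH-1 #1 (standard error 0.061, adjusted p = 0.00842, limma), a ratio of 1.18. With siLRH-1 #2 the value was 0.15, which missed the threshold (adjusted p = 0.169, limma; interval 0.03 to 0.28). A difference of 0.08 between the siRNAs did not pass either (adjusted p = 0.490, limma; interval -0.05 to 0.21), so that ABCD3 is the called gene for which the siRNAs could not be told apart.

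ABCC3 and ABCC4 were the members of the drug and conjugate exporters that fell. ABCC3 (MRP3) returns bile acids and glucuronides across the basolateral membrane of enterocytes and hepatocytes. It had 6.56, 6.85, 6.62 and 6.53 with siLRH-1 #1 and 7.02, 7.04, 6.99 and 6.87 with siLRH-1 #2, against 7.08, 7.03, 7.14 and 7.19 with siLUC. The siLRH-1 #1 arrays lay below all others, and siLRH-1 #2 and siLUC overlapped by 1 array each. ABCC3 fell by 0.47 on the log2 scale with siLRH-1 #1 (standard error 0.07, adjusted p = 2.89e-05, limma), to 0.723 of its siLUC value. With siLRH-1 #2 the log2 fold change was -0.13 (adjusted p = 0.330, limma; interval -0.28 to 0.01), and the difference of siLRH-1 #1 minus siLRH-1 #2 was -0.33 (adjusted p = 0.00174, limma).

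ABCC4 (MRP4), which exports cyclic nucleotides, prostaglandins and nucleoside analogues, had 8.51, 8.58, 8.47 and 8.62 with siLRH-1 #1 and 9.08, 8.82, 8.99 and 8.96 with siLRH-1 #2, against 8.995, 8.81, 8.88 and 8.97 with siLUC. It was low on every siLRH-1 #1 array, while the siLRH-1 #2 arrays overlapped the controls and reached higher, to 9.08 against 8.995. The log2 fold change was -0.37 with siLRH-1 #1 (adjusted p = 2.56e-04, limma) and 0.05 with siLRH-1 #2 (adjusted p = 0.780, limma), with a difference of -0.42 between them (adjusted p = 9.05e-05, limma). A dimmer ABCC4 probe gave 8.20, 8.19, 8.03 and 8.21 with siLRH-1 #1 and 8.78, 8.62, 8.50 and 8.47 with siLRH-1 #2, against 8.46, 8.39, 8.48 and 8.52 with siLUC. Its change was -0.30 with siLRH-1 #1 (adjusted p = 0.00267, limma), so both probes of this gene fell, and 0.13 with siLRH-1 #2, which did not pass (adjusted p = 0.341, limma).

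ABCA7, a phospholipid and cholesterol transporter known for its role in phagocytes and in the brain, fell with siLRH-1 #1 as well. Its values were 8.97, 8.77, 8.58 and 8.62 with siLRH-1 #1 and 9.19, 9.01, 9.11 and 9.24 with siLRH-1 #2, against 9.04, 8.94, 9.11 and 9.18 with siLUC. Replicate 1 of siLRH-1 #1 reached into the control range, while the other 3 arrays were below it. The log2 fold change was -0.33 with siLRH-1 #1 (adjusted p = 0.00366, limma), a ratio of 0.794, and 0.07 with siLRH-1 #2 (adjusted p = 0.726, limma). The siRNAs differed by -0.40 (adjusted p = 8.34e-04, limma), and on this contrast their arrays did not overlap.

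**Figure D2:**
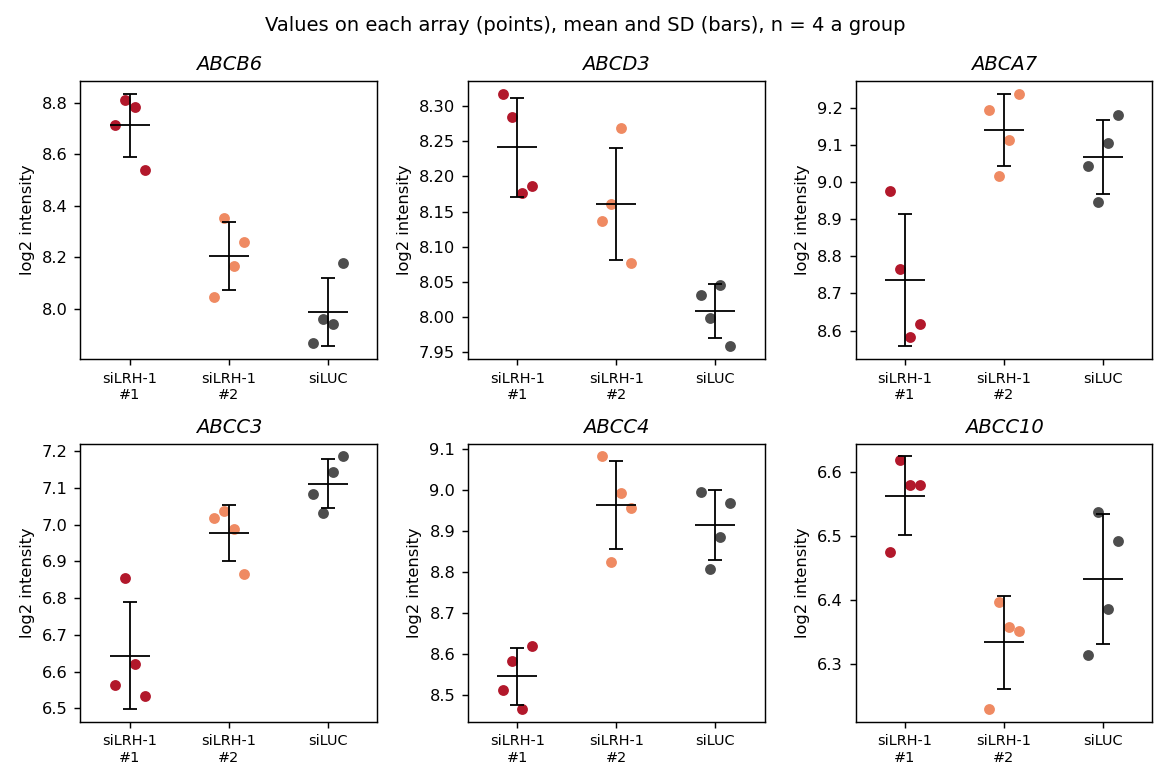
Log2 intensity (vertical axes, each with its own range) on each array for the 6 genes called in any of the 3 comparisons, with the group mean and SD over 4 arrays for siLRH-1 #1, siLRH-1 #2 and siLUC. ABCB6 was highest and ABCC3 and ABCC4 lowest on every siLRH-1 #1 array, and ABCD3 was above the siLUC arrays with both siRNAs.

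The direct comparison of the siRNAs called 5 members (19.2%, against 12.6% of all probes and 18.1% of the brightest probes of named genes). These were ABCB6, ABCC3, ABCC4 and ABCA7, which are 4 of the 5 genes called with siLRH-1 #1, and ABCC10. ABCC10 (MRP7), an exporter of taxanes and other drugs, had 6.48, 6.62, 6.58 and 6.58 with siLRH-1 #1 and 6.23, 6.40, 6.36 and 6.35 with siLRH-1 #2, against 6.32, 6.54, 6.39 and 6.49 with siLUC. The controls lay between the siRNA groups and overlapped each of them. Against siLUC the values were 0.13 with siLRH-1 #1 (adjusted p = 0.187, limma) and -0.10 with siLRH-1 #2 (adjusted p = 0.473, limma), and siLRH-1 #1 exceeded siLRH-1 #2 by 0.23 (adjusted p = 0.0179, limma). That call was lost without siLRH-1 #1 replicate 3 (adjusted p = 0.0543, limma) or without siLRH-1 #2 replicate 1 (adjusted p = 0.0896, limma). In all, 6 members were called in at least 1 of the 3 comparisons and 20 in none. Of all probes, 43.2% of those with a mean of at least 7 and 9.31% of those under 7 were called in at least 1.

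The sterol transporters of ABCG gave no change that passed the test. ABCG8, the partner of ABCG5, had 6.07, 5.93, 6.09 and 5.82 with siLRH-1 #1 and 6.07, 6.02, 5.89 and 6.07 with siLRH-1 #2, against 6.004, 5.84, 5.97 and 6.03 with siLUC. All 3 groups overlapped. The log2 fold changes were 0.01 with siLRH-1 #1 (adjusted p = 0.938, limma; interval -0.13 to 0.16) and 0.05 with siLRH-1 #2 (adjusted p = 0.794, limma; interval -0.09 to 0.19). ABCG1, which passes cholesterol to high-density lipoprotein, had 6.16, 6.06, 6.08 and 5.90 with siLRH-1 #1 and 5.94, 6.21, 6.08 and 5.93 with siLRH-1 #2, against 5.97, 5.89, 6.11 and 6.15 with siLUC. Its changes were 0.02 (interval -0.14 to 0.17) with siLRH-1 #1 and 0.01 (interval -0.15 to 0.17) with siLRH-1 #2. A dimmer ABCG1 probe had -0.07 with siLRH-1 #1 (adjusted p = 0.607, limma) and -0.16 with siLRH-1 #2 (adjusted p = 0.221, limma; interval -0.31 to -0.02). The probe means of ABCG8 and ABCG1 stood at percentiles 12.7 and 20.9 of all probes, near the dim end of the scale. ABCG4, a sterol transporter of brain, was at -0.03 with siLRH-1 #1 and -0.05 with siLRH-1 #2, neither past the threshold.

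Among the exporters of bile conjugates and drugs, ABCC2 and ABCB1 did not pass the test either. ABCC2 (MRP2), the apical exporter of glucuronides and glutathione conjugates, had 7.33, 7.28, 7.35 and 7.38 with siLRH-1 #1 and 7.19, 7.24, 7.24 and 7.28 with siLRH-1 #2, against 7.19, 7.31, 7.31 and 7.29 with siLUC. The groups overlapped, and the changes were 0.05 (interval -0.06 to 0.17) with siLRH-1 #1 and -0.04 (interval -0.16 to 0.07) with siLRH-1 #2. ABCB1, the multidrug pump P-glycoprotein, had 6.43, 6.45, 6.26 and 6.54 with siLRH-1 #1 and 6.49, 6.55, 6.51 and 6.38 with siLRH-1 #2, against 6.27, 6.35, 6.31 and 6.38 with siLUC. The groups overlapped, and its changes did not pass, at 0.09 with siLRH-1 #1 (adjusted p = 0.412, limma) and 0.15 with siLRH-1 #2 (adjusted p = 0.203, limma; interval 0.02 to 0.29). CFTR had 5.92, 6.15, 6.03 and 5.96 with siLRH-1 #1 and 5.80, 5.91, 5.97 and 6.03 with siLRH-1 #2, against 6.14, 6.02, 6.08 and 5.91 with siLUC, and its changes were -0.02 with siLRH-1 #1 (interval -0.16 to 0.12) and -0.11 with siLRH-1 #2 (interval -0.25 to 0.03). The groups overlapped. It too was a dim probe, at percentile 14.3.

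ABCC5 (MRP5), an exporter of cyclic nucleotides, was the 1 gene with a call on one probe and none on the other. The brighter probe had 7.23, 7.38, 7.35 and 7.56 with siLRH-1 #1 and 7.52, 7.47, 7.46 and 7.46 with siLRH-1 #2, against 7.50, 7.40, 7.33 and 7.49 with siLUC, and its changes were -0.05 with siLRH-1 #1 (adjusted p = 0.720, limma) and 0.05 with siLRH-1 #2 (adjusted p = 0.779, limma). The dimmer probe had 6.95, 6.74, 7.00 and 7.09 with siLRH-1 #1 and 7.05, 6.96, 7.05 and 6.99 with siLRH-1 #2, against 7.17, 7.23, 7.01 and 7.32 with siLUC. It fell by 0.23 with siLRH-1 #1 (adjusted p = 0.0301, limma) and stood at -0.17 with siLRH-1 #2 (adjusted p = 0.231, limma), with overlap between all groups. Whether the probes read different transcripts was not tested. Of the 7 members with several probes, ABCC4 was the other with a called probe, and 2 of the 8 additional probes were called in all.

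**Figure D3:**
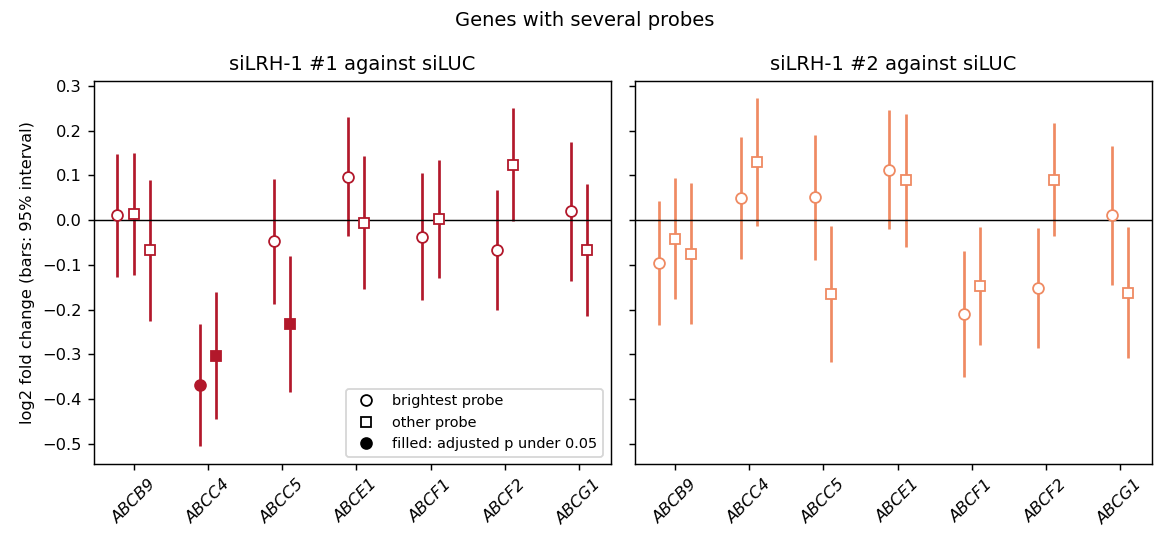
Log2 fold change against siLUC, with 95% intervals from limma, of every probe of the 7 genes that have several, with siLRH-1 #1 (left) and siLRH-1 #2 (right). Both ABCC4 probes fell with siLRH-1 #1, and of the ABCC5 probes only the dimmer one passed an adjusted p under 0.05.

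None of the remaining ABCA genes passed the test. These were ABCA2, a lysosomal lipid transporter, the related ABCA6, ABCA8 and ABCA9 and the pseudogene ABCA11P. The 6 ABCA genes spanned -0.33 to 0.02 with siLRH-1 #1 (median -0.02) and -0.07 to 0.07 with siLRH-1 #2 (median 0.02). The 4 ABCB genes had medians of 0.09 with siLRH-1 #1 and 0.16 with siLRH-1 #2. ABCB9, the lysosomal peptide transporter, was at 0.01 with siLRH-1 #1 and -0.10 with siLRH-1 #2. ABCB10, a mitochondrial half-transporter linked to haem synthesis, gave 0.10 with siLRH-1 #1 and 0.16 with siLRH-1 #2 (adjusted p = 0.174, limma). The 8 ABCC genes had medians of -0.01 with siLRH-1 #1 and -0.07 with siLRH-1 #2.

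None of the ribosome-bound members passed the test in any comparison. ABCE1, which splits ribosomes after termination, had a mean log2 intensity of 10.87 ± 0.02 with siLRH-1 #1 and 10.88 ± 0.12 with siLRH-1 #2, against 10.77 ± 0.07 with siLUC (SD, n = 4), and the log2 fold changes were 0.10 for siLRH-1 #1 (adjusted p = 0.367, limma) and 0.11 for siLRH-1 #2 (adjusted p = 0.394, limma). The 3 ABCF genes were at -0.07 to -0.04 with siLRH-1 #1 and at -0.21 to -0.15 with siLRH-1 #2. A dimmer ABCF2 probe went the other way, at 0.12 with siLRH-1 #1 (adjusted p = 0.192, limma; all 4 arrays above the controls) and 0.09 with siLRH-1 #2 (adjusted p = 0.501, limma). ABCF1, a factor of translation initiation, had the lowest adjusted p of the family with siLRH-1 #2 (0.0766, limma). ABCF1 was chosen after its values were seen. It had 10.66, 10.64, 10.74 and 10.68 with siLRH-1 #1 and 10.33, 10.46, 10.64 and 10.60 with siLRH-1 #2, against 10.65, 10.74, 10.66 and 10.82 with siLUC. Every siLRH-1 #2 array was below every control, and the log2 fold change was -0.21 (interval -0.35 to -0.07). It passed in 4 alternative settings, among them the fit without siLRH-1 #2 replicate 3 (adjusted p = 0.0376, limma). On a dimmer ABCF1 probe the change with siLRH-1 #2 was -0.15 (adjusted p = 0.21, limma), and the siLRH-1 #2 and siLUC arrays overlapped.

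Counted by separation alone, all 4 siLRH-1 #1 arrays lay apart from all 4 siLUC arrays for 4 members (2 higher and 2 lower), against 19.4% of all probes. For siLRH-1 #2 this held for 3 members (1 higher and 2 lower), namely ABCD3, ABCF1 and ABCF2, against 11.5% of all probes. ABCF1 and ABCF2 were each apart on the brighter probe alone. Between the siRNAs it held for 5 members (2 higher and 3 lower with siLRH-1 #1), against 15.9% of all probes. Members moved in both directions, with 14 positive and 12 negative log2 fold changes against siLUC for each siRNA. The family median was 0.01 for siLRH-1 #1, beside 0.005 over all probes, and 0.01 for siLRH-1 #2, beside -7e-04. Regardless of sign, the median change of the members was 0.04 for siLRH-1 #1, beside 0.08 over all probes, and 0.08 for siLRH-1 #2, beside 0.07.

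**Figure D4:**
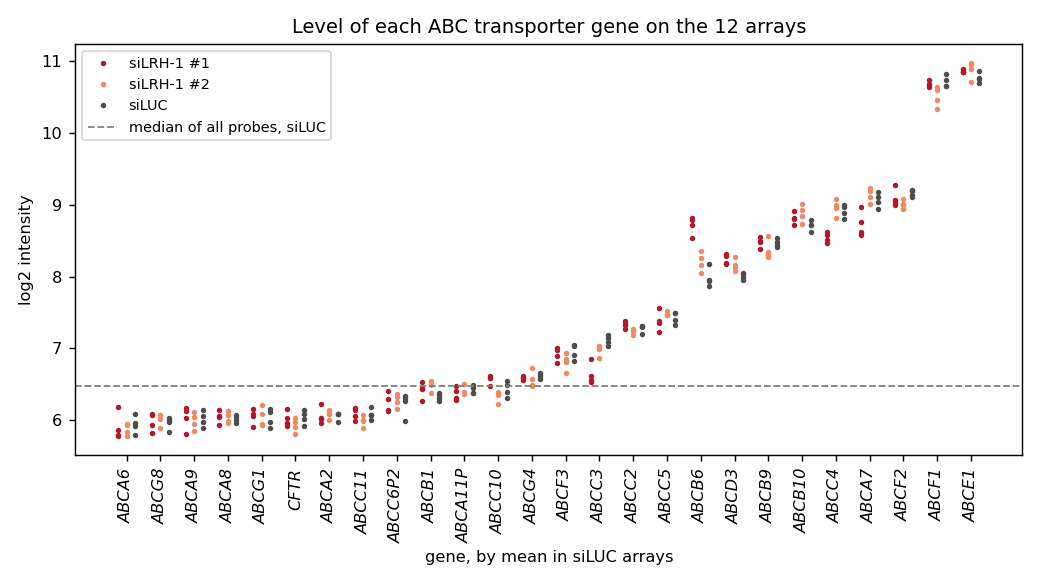
Log2 intensity of the brightest probe of each ABC transporter gene on each of the 12 arrays, by group and ordered by the siLUC mean; the dashed line is the median of all probes in siLUC arrays. Of the 26 genes, 12 lay below that line, and siLUC means ran from 5.94 to 10.77; different probes bind with different strength, so the order is not one of RNA amounts.

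Calls in the family are given by brightness in that plot of levels. The median member had a log2 intensity of 6.79 in siLUC cells, where the median probe had 6.48 and the dimmest 10 percent of probes lay below 5.96. Of the 11 members with a mean of at least 7, 4 were called in some comparison (43.2% of all probes that bright). Of the 15 members under 7, 2 were (ABCC3 and ABCC10), against 9.31% of such probes. The spread within groups was like that of other probes, with a median pooled SD of 0.09 against 0.10 on the log2 scale.

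Partner genes of the transporters were counted from lists, on the brightest probe of each gene, and their shares are to be read beside those of the whole array (17.2% of all probes and 23.5% of named genes with siLRH-1 #1, and 3.24% of all probes with both siRNAs). The share with both siRNAs was not computed for named genes, which were called more often than all probes with each siRNA alone. None of these shares is matched for brightness, and bright probes were called more often. The lists were chosen with earlier results of these data known, so their shares do not test them. A listed gene counts as measured where a probe carried its symbol alone in the platform annotation. Listed genes without such a probe were not analysed here, so the counts and directions below cover the measured genes only. The study's own lists for HCT116 cells hold some of the others. Examples are RXRA and NR1H3 among genes lowered with both siRNAs, and PEX14 and SRXN1 among those raised. Of 28 listed genes of sterol efflux, uptake and sensing, 5 were measured, 4 of them above the median probe in siLUC cells. Of the 5, 2 rose with both siRNAs (3.24% of all probes were called with both), a count too small to compare. MYLIP (IDOL), which sends the LDL receptor for degradation, had a log2 fold change of 0.59 with siLRH-1 #1 (adjusted p = 2.84e-07, limma) and 0.43 with siLRH-1 #2 (adjusted p = 1.63e-04, limma). INSIG2, which retains the SREBP sterol sensor in the endoplasmic reticulum, had 0.48 with siLRH-1 #1 (adjusted p = 1.52e-05, limma) and 0.38 with siLRH-1 #2 (adjusted p = 0.00123, limma). Of 26 genes of bile acid and anion transport, 4 were measured and none passed. The lowest p was that of FABP6, the ileal bile acid binding protein, at 0.17 with siLRH-1 #1 and -0.01 with siLRH-1 #2. FGF19, the gut hormone that limits bile acid synthesis, followed at 0.21 with siLRH-1 #1 and 0.20 with siLRH-1 #2.

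Genes of glutathione use and the NRF2 response, whose conjugates ABCC proteins export, were measured for 18 of 25. Of the 18, 14 were above the median probe in siLUC cells. With siLRH-1 #1, 9 passed (50%, against 17.2% of all probes and 23.5% of named genes, not matched for brightness), 5 higher and 4 lower. GCLC, whose product catalyses the first step of glutathione synthesis, rose by 0.21 with siLRH-1 #1 (adjusted p = 0.0232, limma) and by 0.30 with siLRH-1 #2 (adjusted p = 0.00361, limma). HMOX1, the haem-degrading oxygenase, fell by 0.53 with siLRH-1 #1 (adjusted p = 4.61e-05, limma) and by 0.40 with siLRH-1 #2 (adjusted p = 0.00344, limma). Among the 18 measured genes of the list, these 2 were called with both siRNAs. GCLC lost its call with siLRH-1 #1 without siLUC replicate 1, 2 or 4 or siLRH-1 #1 replicate 1 or 2 (adjusted p = 0.0524 to 0.0783, limma), and HMOX1 its call with siLRH-1 #2 when no variance was shared between probes (adjusted p = 0.0765). The others called with siLRH-1 #1, chosen after their values were seen, were GCLM, GSR, GSTZ1 and MGST1, which rose, and GSTK1, GSTM1 and MGST3, which fell. Of 3 measured genes of the xenobiotic receptors, 1 passed (33.3%), as CYP1B1 rose with siLRH-1 #1 (0.40, adjusted p = 0.00731, limma) and had 0.29 with siLRH-1 #2 (adjusted p = 0.110, limma). Without siLRH-1 #1 replicate 2 it passed with both (adjusted p = 0.0269 for siLRH-1 #1 and 0.0147 for siLRH-1 #2, limma).

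Mitochondrial iron and haem genes, the partners of ABCB6 and ABCB10, were measured for 13 of 26, and 3 passed with siLRH-1 #1 (23.1%, near the 23.5% of named genes). CPOX, which oxidises coproporphyrinogen in the mitochondrion, rose by 0.56 with siLRH-1 #1 (adjusted p = 7.73e-07, limma) and had 0.08 with siLRH-1 #2 (adjusted p = 0.580, limma). As for ABCB6, the difference between the siRNAs passed (0.48, adjusted p = 1.25e-05, limma). ALAD, an earlier enzyme of the same pathway, fell by 0.37 with siLRH-1 #1 (adjusted p = 1.28e-04, limma) and had -0.14 with siLRH-1 #2. FDX1, a ferredoxin chosen after its value was seen, rose by 0.30 with siLRH-1 #1 and had 0.05 with siLRH-1 #2.

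In the other lists none of the measured genes was called with both siRNAs. Peroxisomal genes, the partners of ABCD3, were measured for 10 of 31 and 2 passed (20%), as with siLRH-1 #1 HSD17B4 rose by 0.19 while HACL1 had -0.20. Antigen presentation genes were measured for 9 of 20 and 2 passed (22.2%), where ERAP2, a peptide-trimming peptidase, rose by 0.42 with siLRH-1 #1 and CANX, a chaperone of the endoplasmic reticulum, had -0.63. CANX is also on the list of CFTR partners, of which 5 of 20 were measured, 4 of them above the median probe in siLUC cells. Of the 5, 3 passed with siLRH-1 #1 (60%, against 17.2% of all probes and 23.5% of named genes, not matched for brightness). The others were DNAJB1 at -0.28, which passed with both siRNAs without siLRH-1 #1 replicate 2 (adjusted p = 0.016 for siLRH-1 #1 and 0.0346 for siLRH-1 #2, limma), and ADCY9, chosen after its value was seen, at 0.21. Of 23 genes of ribosome recycling and initiation, the partners of ABCE1 and ABCF, 17 were measured and 1 passed (5.88%), EIF2D at -0.35 with siLRH-1 #1 and -0.11 with siLRH-1 #2.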

How the data were processed

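Total RNA of HCT116 cells was prepared for analysis on 12 HumanHT-12 v4 BeadChip arrays, 4 a group. Per the study's methods, the authors read the images with GenomeStudio, dropped probes undetected in all samples and quantile-normalized in Partek. The deposited log2 intensities were used as they are, so a change of most transcripts one way would not show. The non-normalized table was not used, because its 24 columns carry names that fit no label. Versions of the authors' tools are not given in the sources used here.

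Of 16381 probes, 9910 had 1 gene symbol in the platform annotation, 4 several and 6467 none. All 26 member gene IDs matched the RefSeq gene table and kept their symbols. A model with 3 groups was fitted with limma 3.58.1 in R 4.3.3 (9 residual and 14.6 prior degrees of freedom), with Benjamini-Hochberg adjustment over the whole table and a threshold of 0.05. The script was tested on simulated data. The number of arrays limits the precision. Values on every array are given for members called in any contrast on any probe and for chosen sterol, bile and drug transporters; partner lists name the genes called with both siRNAs, otherwise up to 2 with the lowest p. The members and lists were chosen with earlier results of these data known. Alternatives were a replicate block, other variance models, scalings and probe choices, and each array left out. Arrays of the same replicate number did not deviate together (residual correlations -0.04 to 0.04), so numbers were not taken as pairs. Promoter windows came from RefSeq (GRCh38.p14), with no entry used for ABCA11P, ABCA8, ABCC3, ABCC6P2 and ABCG1. Figures were made in matplotlib 3.10.9 under Python 3.11.15.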

Additional observations from a re-analysis of the deposited data

Results flagged for a closer look

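A gap of 1 array from the rest of its group was seen in 2 of 78 groups of 4 arrays, where chance alone gives about 1 in 20. ABCE1 on siLRH-1 #1 replicate 4 read 10.90, while the other siLRH-1 #1 arrays read 10.85 to 10.86. ABCA2 on siLUC replicate 2 read 5.97, while the other siLUC arrays read 6.08 to 6.09. Neither gene was called in any comparison.

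The siRNAs differed from each other in 5 members by limma. As log2 differences of siLRH-1 #1 minus siLRH-1 #2, these were 0.51 for ABCB6, 0.23 for ABCC10, -0.33 for ABCC3, -0.40 for ABCA7 and -0.42 for ABCC4. Both siRNAs are directed at LRH-1, and the cause of these differences was not tested.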

How the results depend on the processing

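The 5 members called with siLRH-1 #1 kept their calls in every setting in which they were tested, with each of the 12 arrays left out in turn and in 13 other settings; the count was 5 without any one array and 4 to 6 otherwise, where ABCC3 is not tested at a mean log2 of at least 7 and ABCC5 is added when any probe may count. For siLRH-1 #2 the count of 0 became 1, ABCF1, with an intensity trend (adjusted p = 0.0466), with 16 added before log2 (adjusted p = 0.0442), among probes with a mean log2 of 7 or more (adjusted p = 0.0302) and without siLRH-1 #2 replicate 3 (adjusted p = 0.0376), and 1, ABCB6, without siLUC replicate 4, so that leaving out arrays gave 0 to 1 (limma throughout). The count with both siRNAs was also 0 to 1. Between the siRNAs 4 to 5 members were called, as ABCC10 was lost at an adjusted p under 0.01 and without either of 2 arrays, and as at a mean log2 of at least 7 ABCC3 and ABCC10 are not tested while ABCF1 is gained (0.17, adjusted p = 0.0498). The ABCC5 value with siLRH-1 #2 reversed to -0.0575 on the mean of its probes and to -0.17 on the dimmer probe, and the value with siLRH-1 #1 ranged from -0.1083 to 0.0025 with arrays left out, reversing without siLRH-1 #1 replicate 1. With the replicate block, the counts were 5, 0 and 5 and no member's call changed. The median level of members was 6.98 with 16 added and 8.71 at a mean log2 of at least 7, where the median difference between the siRNAs was 0.0805. Of the partner lists, glutathione genes called with both siRNAs were 1 with each probe's own variance (HMOX1 lost) and at an adjusted p under 0.01 (GCLC lost), and 1 to 2 with arrays left out (GCLC lost without siLUC replicates 1, 2 or 4 or siLRH-1 #1 replicates 1 or 2). Xenobiotic genes were 1 (CYP1B1) with the 8 arrays of each comparison alone, and 0 to 1 with arrays left out (1 without siLRH-1 #1 replicate 2). CFTR partners were 1 (DNAJB1) with the 8 arrays alone, an intensity trend, 16 added, or a mean log2 of at least 7, and 0 to 1 with arrays left out (1 without siLRH-1 #1 replicate 2). The cause of these changes was not tested. A block for, and fits within, 2 sets of arrays were planned and not run, because neither labels nor array means define the sets here. Dim probes and 4 arrays a group limit what could be seen: 15 of the 26 members had a mean under 7.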
